A study of Mus musculus with 8 samples.

Results

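The angiopoietin and Tie genes were described in lungs of mice kept at 10% oxygen for 7 days and in lungs of mice kept in normoxia. The set holds 8 genes, which were taken by name as the angiopoietins *Angpt1*, *Angpt2* and *Angpt4*, the receptors *Tie1* and *Tek*, the phosphatase *Ptprb*, and the angiopoietin-like genes *Angptl2* and *Angptl4*. All 8 were measured, among 25428 probe sets with 1 probe set per Entrez gene. RNA came from 1 lung lobe of each of 8 mice and was measured on Affymetrix Mouse Gene 2.0 ST arrays. The 4 hypoxic mice carry the letters A, B, C and D and the 4 normoxic mice the letters F, G, H and I. Both groups share the genotype Nfat5fl/fl, with a floxed but intact *Nfat5*, and the study's methods describe mice of this name as young adult males of a cross with the smooth muscle-specific, tamoxifen-inducible line SM-MHC-CreERT2 that received the solvent miglyol in place of tamoxifen. Each letter stands for its own mouse, and no letter occurs in both groups. All values are log2 intensities, and differences are hypoxia minus normoxia.

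Angiopoietins are secreted ligands that set how quiescent or how loose the wall of a blood vessel is. *Angpt1* is made mostly by pericytes, smooth muscle cells and fibroblasts and activates the receptor TIE2, which is encoded by *Tek* and carried by endothelial cells, whereas *Angpt2* is made and stored by endothelial cells and can block or activate the same receptor depending on the context. TIE1 is a related endothelial receptor that forms complexes with TIE2 and modulates its signal, and the endothelial phosphatase VE-PTP, encoded by *Ptprb*, removes phosphate from TIE2. The angiopoietin-like proteins resemble angiopoietins in structure but do not bind TIE2.

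The sequence before the start site is shown for both Tie receptors, a choice made after their values had been seen. In hypoxia the mean was higher for *Tie1* and lower for *Tek*. For *Tie1* minus *Tek* within a lung, however, the groups overlapped (two-sided exact permutation p = 0.0857). This measure was also chosen after the values had been seen, so that its p is a description. Whether these sequences have a part in the values was not tested. The sequences are the 250 bases before the start site in the RefSeq promoter table (build GRCm38.p6), with the *Tie1* window at chr4:118489850-118490099 on the minus strand and the *Tek* window at chr4:94739039-94739288 on the plus strand. The capitals mark GGAA on either strand, the core letters of sites of ETS factors, a transcription factor family active in endothelial genes.
Tie1: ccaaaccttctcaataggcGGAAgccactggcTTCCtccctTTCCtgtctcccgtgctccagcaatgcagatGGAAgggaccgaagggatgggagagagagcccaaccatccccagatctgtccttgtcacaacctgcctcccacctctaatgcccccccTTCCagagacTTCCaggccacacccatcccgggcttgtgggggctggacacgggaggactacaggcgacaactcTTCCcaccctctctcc
Tek: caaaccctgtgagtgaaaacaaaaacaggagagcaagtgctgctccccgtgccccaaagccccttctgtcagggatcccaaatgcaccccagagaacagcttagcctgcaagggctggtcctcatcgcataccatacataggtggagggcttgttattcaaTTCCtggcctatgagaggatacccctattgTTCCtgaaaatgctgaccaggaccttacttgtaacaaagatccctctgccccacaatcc
The *Tie1* window held 7 such matches and the *Tek* window 2. Of 27025 promoters in the table, 93.4% held at least 1 match, with a median of 3, and 3.77% held at least 7. The core letters of the hypoxia response element, ACGTG or GCGTG on either strand, were found in neither window, while ACGTG was found in 16.6% and GCGTG in 28.2% of all promoters. The forkhead letters TGTTTAC were also in neither window (3.09% of promoters), and the KLF letters CCACCC were in the *Tie1* window once and not in the *Tek* window (27.7% of promoters), again on both strands. A match of letters is a description of the sequence and not of binding. Of the 8 genes, 4 have a promoter in the table, and the other promoters searched were those of *Angpt4*, with 5 matches to GGAA, 4 to GCGTG (0.866% of promoters held at least as many) and 0 to ACGTG, and of *Angptl2*, with 2 matches to GGAA and 0 to either hypoxia motif.

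*Tie1* had the smallest unadjusted limma p of the set, while the difference of *Angptl4* was slightly larger (0.87). Its log2 intensity was 9.08 in mouse A, 8.80 in B, 8.68 in C and 8.20 in D, against 7.87, 8.18, 7.83 and 7.52 in mice F, G, H and I. Every hypoxic lung was above every normoxic lung, although only 0.02 separated hypoxic mouse D from normoxic mouse G. *Tie1* averaged 8.69 ± 0.37 in hypoxia and 7.85 ± 0.27 in normoxia (SD, n = 4 each), a difference of 0.84 (standard error 0.21), which is a fold change of 1.79 with a 95% interval of 1.30 to 2.46. Limma gave an unadjusted p = 0.00201 and an adjusted p = 0.210 over all probe sets, so that *Tie1* did not pass the threshold of 0.05. It was the only gene of the 8 with groups that did not overlap, and over all probe sets 3.01% had such groups with hypoxia above and 1.61% with hypoxia below.

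No gene of the set passed the adjusted threshold in limma, and neither did any of the 25428 probe sets (background 0%). At an unadjusted p under 0.05, *Tie1* and *Angptl4* were higher and none of the 8 was lower, while 5.34% of all probe sets were higher and 3.15% lower, which is 8.5% (2161 probe sets) in either direction. Means were higher in hypoxia for 4 genes and lower for 4. The plot of each gene by lung shows that the spread between lungs of 1 group was often as large as the difference between the groups.

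**Figure D1:**
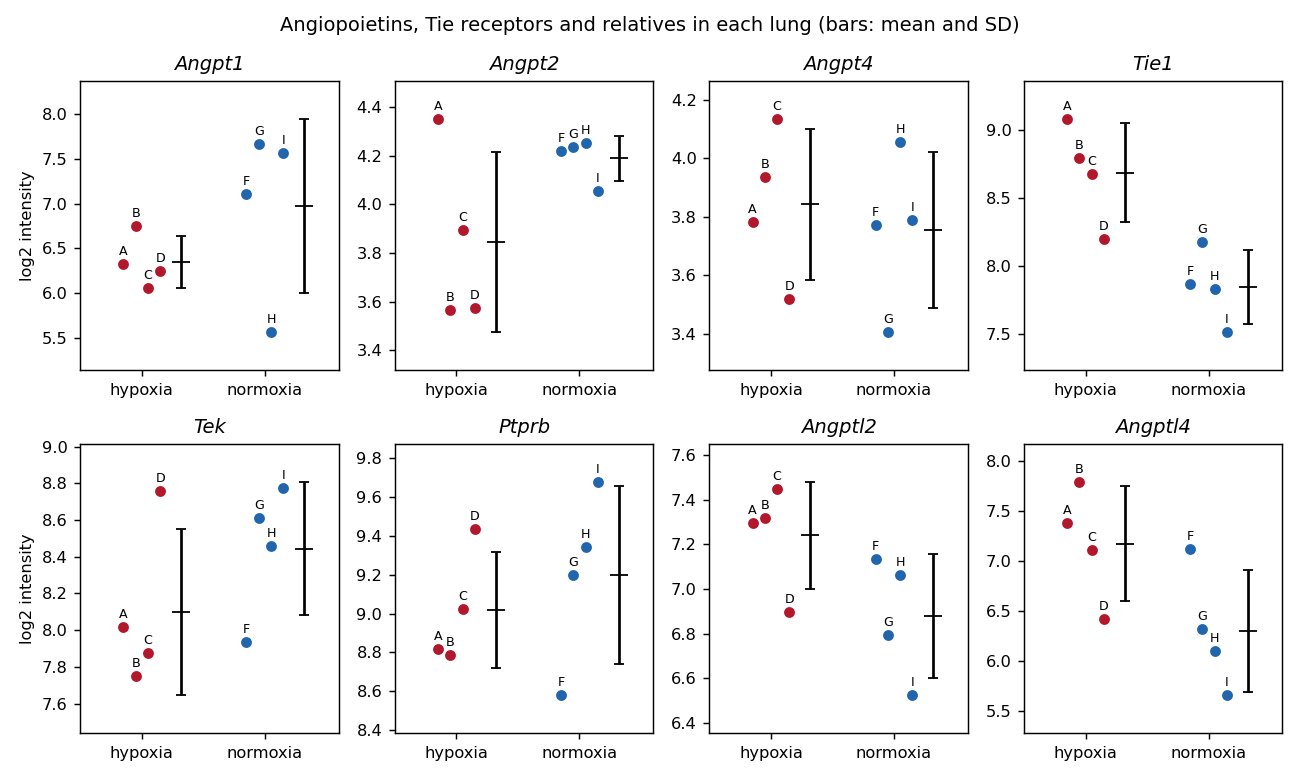
Log2 intensity of the 8 genes (y axis) in each lung, with hypoxic mice A to D left of normoxic mice F to I, and with the mean and SD (n = 4) as black bars; each panel has its own axis. The groups are apart for Tie1 alone, and normoxic mouse H lies at 5.56 for Angpt1, under the other 7 lungs.

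The other receptor, *Tek*, did not share this pattern. It measured 8.02 in mouse A, 7.75 in B, 7.88 in C and 8.76 in D, against 7.93, 8.61, 8.46 and 8.77 in mice F, G, H and I. Hypoxic mouse D was as high as the highest normoxic lungs, and normoxic mouse F lay with the 3 low hypoxic lungs. The means were 8.10 ± 0.45 in hypoxia and 8.44 ± 0.36 in normoxia (SD, n = 4 each), a difference of -0.34 (95% interval -0.89 to 0.20, adjusted p = 0.761 from limma). It was -0.56 without mouse D (adjusted p = 0.408) and -0.23 without mouse B (adjusted p = 0.991).

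*Ptprb*, whose product dephosphorylates TIE2, followed *Tek* from lung to lung. Its values were 8.82 in mouse A, 8.79 in B, 9.03 in C and 9.44 in D, against 8.58, 9.20, 9.34 and 9.68 in mice F, G, H and I. Mouse D was again the highest of the hypoxic lungs and mouse F the lowest of the normoxic lungs. The means of 9.02 ± 0.30 in hypoxia and 9.20 ± 0.46 in normoxia differed by -0.18 (95% interval -0.70 to 0.34, adjusted p = 0.877 from limma). Leaving out single mice moved this value between -0.39 (without mouse F) and -0.02 (without mouse I). Within a lung, *Ptprb* minus *Tek* ranged only from 0.59 to 1.15.

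One receptor was set against the other as *Tie1* minus *Tek* within each lung, a measure chosen after their values had been seen. It was 1.06 in mouse A, 1.05 in B, 0.80 in C and -0.56 in D, against -0.06, -0.43, -0.63 and -1.26 in mice F, G, H and I. Of the hypoxic lungs, A, B and C lay above all normoxic lungs and D did not. The means differed by 1.18 (0.59 ± 0.77 in hypoxia and -0.59 ± 0.50 in normoxia, SD, n = 4 each). The two-sided exact permutation test over 70 assignments gave p = 0.0857, where the smallest p that 4 mice against 4 allow is 0.0286. Without mouse D, the only hypoxic lung that overlapped the normoxic lungs, the difference was 1.56, given with no test, and without any other single mouse it was 0.96 to 1.36.

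The receptors are endothelial, and in RNA of whole lung tissue fewer cells of a type and less RNA per cell cannot be told apart. The mean log2 level of 20 pan-endothelial markers, none of them in the set, ranged from 7.97 to 8.15 in hypoxia and from 7.78 to 8.12 in normoxia, with a median difference over the markers of 0.08. At an unadjusted p under 0.05, 5 of these 20 markers were higher (25%) and 2 lower (10%). Over all probe sets, 5.34% were higher and 3.15% lower, the background for this and all later list counts. The endothelial adhesion molecule *Icam2* differed by 0.65 with a standard error of 0.18, and the transcription factors *Sox17* and *Sox18* by 0.69 (standard error 0.21) and -0.60 (standard error 0.17), each with an adjusted p of at least 0.283 in limma. Relative to the marker mean of the same lung, *Tie1* was at 0.93 in mouse A, 0.82 in B, 0.56 in C and 0.19 in D, against 0.09, 0.14, -0.26 and -0.60 in mice F, G, H and I. The groups remained apart for *Tie1* on this scale, whereas they overlapped for *Tek* (0.04 ± 0.47 in hypoxia and 0.44 ± 0.22 in normoxia) and for *Ptprb* (0.95 ± 0.33 in hypoxia and 1.19 ± 0.31 in normoxia). On this scale the difference of *Tek* was -0.40, or -0.63 without mouse D, and that of *Ptprb* was -0.24, or -0.39 without mouse D and -0.12 without mouse I.

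TIE1 is also carried by lymphatic endothelium, and markers of that cell type were mostly higher in the same lungs. At an unadjusted p under 0.05, 4 of 7 measured lymphatic markers were higher and 1 was lower, against 5.34% and 3.15% of all probe sets. The median difference was 0.69, where the median over all probe sets was -0.005. The lymphatic receptor gene *Flt4* differed by 0.94 (limma, standard error 0.20, adjusted p = 0.139), *Reln*, which encodes the secreted glycoprotein reelin, by 0.92 (standard error 0.18, adjusted p = 0.118) and the hyaluronan receptor *Lyve1* by -0.70 (standard error 0.21, adjusted p = 0.335). The marker mean ranged from 5.83 to 6.19 in hypoxia and from 5.51 to 5.87 in normoxia, and the part of these cells in the *Tie1* difference was not tested.

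*Tek*, *Ptprb* and *Angpt1* are long genes, and the level of long genes as a class varied between the lungs. Of 11628 protein-coding genes above the median level, the longest class by annotated span, 1 of 5 classes of like size (2326 genes of at least 70.03 kb in the RefSeq gene table of GRCm38.p6) had a median deviation from the mean of the 8 lungs of 0.003 in mouse A, -0.13 in B, -0.04 in C and 0.13 in D, against -0.18, -0.02, 0.11 and 0.12 in mice F, G, H and I. Mice D, H and I were above the mean of the 8 lungs and mice B, C and F below it for these long genes, for *Ptprb* and for *Tek*. The other 2 lungs did not match, since mouse A was near the mean for the long genes and below it for *Tek* (-0.26) and *Ptprb* (-0.29), and mouse G was slightly below it for the long genes and above it for *Tek* (0.34) and *Ptprb* (0.09). *Angpt1* did not follow the long genes. It was below its mean in mice H (-1.09) and D (-0.42) and above it in F (0.45), G (1.00) and B (0.09), opposite to the class. Mice C (-0.60) and I (0.90) had the sign of the class. Over the 8 genes, the difference was 0.87 for *Angptl4* with a span of 6.68 kb, 0.84 for *Tie1* with 18.7 kb, 0.36 for *Angptl2* with 31.8 kb, 0.09 for *Angpt4* with 34.1 kb, -0.34 for *Angpt2* with 51.3 kb, -0.18 for *Ptprb* with 114 kb, -0.34 for *Tek* with 136 kb and -0.63 for *Angpt1* with 252 kb. The 4 shorter genes had higher means in hypoxia and the 4 longer genes lower means, a description of 8 genes that was looked for after the values had been seen. For the class as a whole the median difference was small, 0.04 in the shortest and -0.04 in the longest class. With the median of the longest class subtracted in each lung, *Tie1* differed by 0.85, *Tek* by -0.33 and *Ptprb* by -0.17, and the *Tie1* groups then overlapped, with mouse D at 8.08 and mouse G at 8.20.

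**Figure D2:**
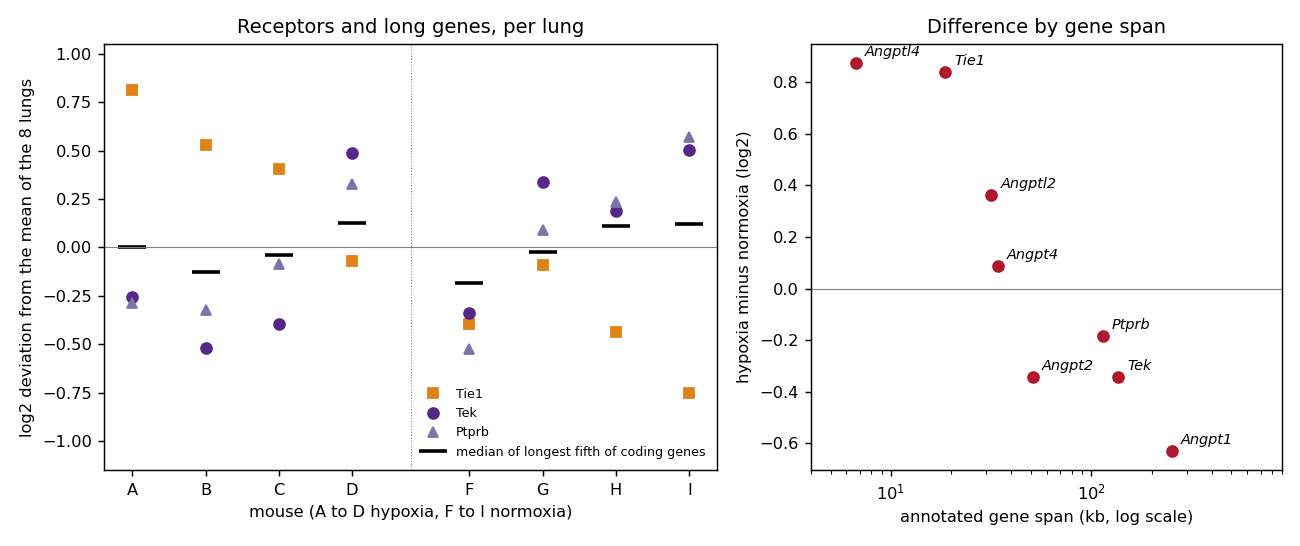
Left, log2 deviation from the mean of the 8 lungs (y axis) for Tie1 (squares), Tek (circles), Ptprb (triangles) and the median of the longest of 5 classes of coding genes (bars), for hypoxic mice A to D and normoxic mice F to I. Right, difference between hypoxia and normoxia (log2, y axis) of the 8 genes against their annotated span in kb (log scale), from 0.87 for Angptl4 to -0.63 for Angpt1.

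Of the ligands, *Angpt1* and *Angpt2* had lower means in hypoxia, and for *Angpt1* all of the overlap between the groups came from 1 normoxic lung. It measured 6.33 in mouse A, 6.75 in B, 6.06 in C and 6.24 in D, against 7.10, 7.66, 5.56 and 7.56 in mice F, G, H and I. Normoxic mice F, G and I lay above all hypoxic mice and normoxic mouse H below them all. The means were 6.34 ± 0.29 in hypoxia and 6.97 ± 0.97 in normoxia (SD, n = 4 each), a difference of -0.63 (95% interval -1.49 to 0.23, adjusted p = 0.715 from limma). Without mouse H the difference was -1.10 (adjusted p = 0.101 from limma), and without mouse G it was -0.40 (adjusted p = 0.802).

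Among 12683 named genes above the median level, those whose mean-centred profile over the 8 lungs lay closest to that of *Angpt1*, by root mean square difference, were *Gm14295* (0.16), the proteasome subunit gene *Psmc6* (0.18) and *Bclaf1* (0.21), which encodes a nuclear RNA-binding protein. They were chosen for this likeness, mouse H included, so that their low values in mouse H are a description. *Psmc6* was at 6.39 in mouse H and between 7.56 and 8.18 in the other normoxic mice.

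Markers of the cells that make *Angpt1* went both ways, with more of them higher than lower. At an unadjusted p under 0.05, 5 of 14 pericyte markers were higher and 0 lower (median 0.26), with *Higd1b*, a pericyte-enriched mitochondrial gene, at 0.87 (limma, standard error 0.22, adjusted p = 0.210), next to the receptor *Notch3* at 0.97 (standard error 0.30). Of 12 smooth muscle markers, 4 were higher and 0 lower (median 0.27), and of 13 fibroblast markers, 3 were higher and 1 lower (median 0.16). The background for these 3 lists was 5.34% higher and 3.15% lower. The mean level of the pericyte list was 6.47 to 6.82 in hypoxia and 6.22 to 6.60 in normoxia. Regardless of p, the mean was lower in hypoxia for 2 pericyte, 4 smooth muscle and 5 fibroblast markers and higher for 12, 8 and 8. Lower markers included *Dcn* of the fibroblast list at -1.01 (standard error 0.27, adjusted p = 0.258 from limma). *Rgs5* of the pericyte list was also lower, at -0.51 (standard error 0.34). The part of these cells in the *Angpt1* difference was not tested. Platelets and their precursors also carry angiopoietin-1, and all 12 markers of these cells had a lower mean in hypoxia (median -0.33). At an unadjusted p under 0.05, 4 of them were lower, against 3.15% of all probe sets. The platelet chemokine gene *Ppbp* differed by -1.52 (standard error 0.27, adjusted p = 0.0918) and the platelet glycoprotein gene *Gp9* by -0.97 (standard error 0.21). The platelet list averaged 4.16 to 4.51 in the hypoxic and 4.79 to 4.87 in the normoxic lungs, with 4.79 in mouse H, and its part in the *Angpt1* difference was not tested.

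*Angpt2*, the ligand stored in endothelial cells, and *Angpt4*, a further TIE2 ligand, were both dim, with mean intensities under the median of all probe sets, and the table gives no call of detection. *Angpt2* was at 4.35 in mouse A, 3.56 in B, 3.89 in C and 3.57 in D, against 4.22, 4.23, 4.25 and 4.05 in mice F, G, H and I. The hypoxic lungs B, C and D lay below all normoxic lungs, and mouse A was the highest of the 8. The difference was -0.34 (standard error 0.19, 95% interval -0.76 to 0.07, adjusted p = 0.674 from limma), and the SD was 0.37 in hypoxia and 0.09 in normoxia. *Angpt4* ranged from 3.52 to 4.13 in hypoxia and from 3.41 to 4.06 in normoxia, a difference of 0.09 (95% interval -0.32 to 0.50, adjusted p = 0.934) whose sign turned without mouse C or without mouse G.

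The balance of both ligands, read as *Angpt2* minus *Angpt1* within a lung, was -1.98 in mouse A, -3.19 in B, -2.16 in C and -2.67 in D, against -2.89, -3.43, -1.31 and -3.51 in mice F, G, H and I. Neither group stood above the other. The difference was 0.28 (-2.50 ± 0.54 in hypoxia and -2.78 ± 1.02 in normoxia, SD, n = 4 each; two-sided exact permutation p = 0.657, smallest possible 0.0286). It was 0.77 without mouse H (exact permutation p = 0.114) and 0.04 without mouse I (exact permutation p = 0.943).

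**Figure D3:**
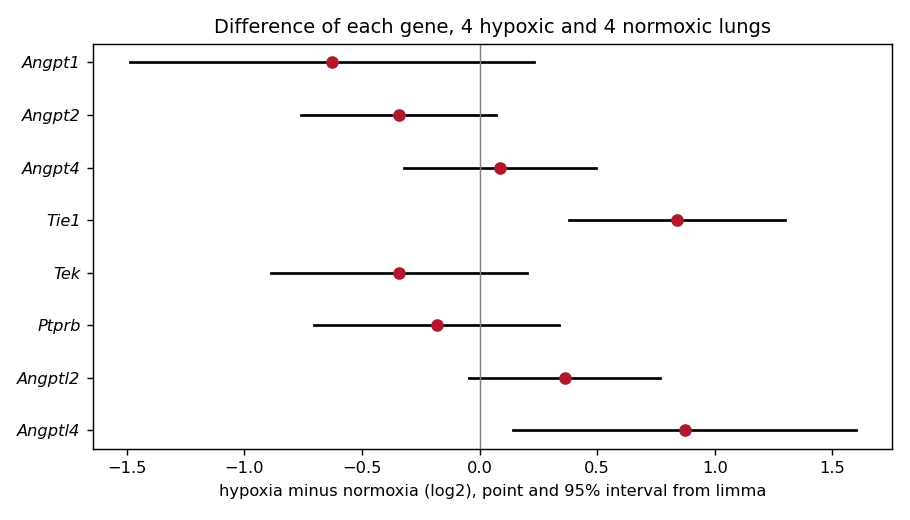
Hypoxia minus normoxia on the log2 scale (x axis) for the 8 genes, as a point with the 95% interval from limma, 4 lungs per group. The intervals of Tie1 (0.38 to 1.30) and Angptl4 (0.14 to 1.60) lie above 0, and those of the other 6 genes include 0.

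*Angptl4*, whose product inhibits lipoprotein lipase and whose gene is induced by fatty acid-sensing PPAR receptors and by hypoxia-inducible factors, had a difference about as large as that of *Tie1*. It measured 7.37 in mouse A, 7.79 in B, 7.11 in C and 6.41 in D, against 7.11, 6.32, 6.10 and 5.66 in mice F, G, H and I. Normoxic mouse F lay above hypoxic mice C and D, and the other 3 normoxic mice lay below all hypoxic mice. The means of 7.17 ± 0.58 in hypoxia and 6.30 ± 0.61 in normoxia differed by 0.87 (standard error 0.33), a fold change of 1.83 with a 95% interval of 1.10 to 3.03 (adjusted p = 0.476 from limma). *Angptl2*, a secreted protein linked to inflammation and matrix remodelling, was at 7.30 in mouse A, 7.32 in B, 7.45 in C and 6.90 in D, against 7.13, 6.79, 7.06 and 6.53 in mice F, G, H and I. Its difference of 0.36 had a 95% interval of -0.04 to 0.77 (adjusted p = 0.644), and hypoxic mouse D lay below normoxic mice F and H.

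Partners of *Angptl4* in lipid handling were mixed. Lipoprotein lipase (*Lpl*), the target of its inhibition, was at 7.51 in mouse A, 7.56 in B, 7.57 in C and 8.20 in D, against 8.56, 8.55, 8.07 and 8.46 in mice F, G, H and I. The groups overlapped by mouse D alone, and the difference was -0.70 (standard error 0.19, adjusted p = 0.280 from limma). The fatty acid transporter *Cd36* differed by -0.62 (standard error 0.27), *Lmf1*, which is needed for the maturation of lipases, by 0.51 (standard error 0.22), the endothelial lipase *Lipg* by 0.48 (standard error 0.28), and the related gene *Angptl1*, which was dimmer than the median probe set, by -0.53 (standard error 0.21). At an unadjusted p under 0.05, 1 of 13 other angiopoietin-like genes and partners was higher and 3 were lower (median -0.05). The background was 5.34% higher and 3.15% lower.

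Of the genes that are regulated like *Angptl4*, PPAR targets mostly had lower means in hypoxia (10 of 13). HIF targets were split, with 13 higher and 9 lower means. By the same unadjusted p, 5.34% of all probe sets were higher and 3.15% lower. Of 13 measured PPAR targets, 1 was higher and 4 were lower (median -0.23). They included the fatty acid-oxidising dehydrogenase *Acadm* at -0.98 (standard error 0.21, adjusted p = 0.157) and *Acadl* at -0.44 (standard error 0.19), the kinase *Pdk4*, which inhibits pyruvate dehydrogenase, at -1.08 (standard error 0.25, adjusted p = 0.176), and the mitochondrial carrier *Ucp2* at 0.52 (standard error 0.18). Of 22 HIF targets, 5 were higher and 2 lower (median 0.08), with *Ankrd37* at 1.67 (standard error 0.28, adjusted p = 0.0751), the collagen hydroxylase *P4ha2* at 0.80 (standard error 0.24) and the stress-induced gene *Ndrg1* at 0.60 (standard error 0.19). The 2 lower HIF targets were *Pfkfb3* at -0.61 (standard error 0.22) and *Hk2* at -0.70 (standard error 0.29). Adipocytes express *Angptl4* as well, and 16 of their 20 markers had an unadjusted p under 0.05, all with the lower mean in hypoxia (median -1.24), with a list mean of 5.37 to 5.69 in hypoxia and 5.93 to 7.54 in normoxia. Mouse F, the highest normoxic lung for *Angptl4*, was also the highest for the adipocyte list at 7.54, while the hypoxic lungs had the higher *Angptl4* mean and the lower list mean, and the part of fat in the *Angptl4* values was not tested.

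The genes whose profile was closest to *Angptl4* over the 8 lungs were *Cpxm1*, a carboxypeptidase-like gene of the matrix (root mean square difference 0.17), the kinetochore gene *Pmf1* (0.18) and *Plod1*, a collagen lysyl hydroxylase (0.19). *Plod1* was at 7.68 in mouse A, 7.78 in B, 7.51 in C and 6.88 in D, against 7.12, 6.76, 6.60 and 6.05 in mice F, G, H and I. By this choice it was, like *Angptl4*, high in A, B and C and lowest in I.

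For the signalling partners of the Tie receptors, 35 genes were taken from a list. It holds binding partners, matrix receptors and junction genes beside adaptors and kinases, so that not all of them lie downstream. An unadjusted p under 0.05 was found for 5 genes (14.3%), all with the higher mean in hypoxia. Of all probe sets, 5.34% were higher and 3.15% lower at this p. The list median was 0.14, and 0 genes passed the adjusted threshold. Endothelial nitric oxide synthase (*Nos3*), an effector of AKT signalling, was at 6.05 in mouse A, 6.14 in B, 5.87 in C and 5.67 in D, against 5.46, 5.49, 5.15 and 4.93 in mice F, G, H and I. All hypoxic lungs were above all normoxic lungs, and the difference was 0.67 (standard error 0.18, adjusted p = 0.245 from limma). The groups were also apart for the shear-responsive transcription factor *Klf2*, with a difference of 0.59 (standard error 0.17, adjusted p = 0.290). Groups apart with hypoxia above were found for 2 of the 35 genes and for 3.01% of all probe sets. The fibronectin receptor subunit *Itga5* differed by 0.89 (standard error 0.28) and *Svep1*, a matrix protein that binds TIE1, by 0.78 (standard error 0.33), with groups that overlapped.

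FOXO1 is kept inactive by TIE2 signalling through AKT and drives *Angpt2* expression when it is active. The difference of *Foxo1* itself was -0.22 (limma, standard error 0.22, adjusted p = 0.835). Of 15 FOXO targets, 0 were higher and 1, *Pdk4*, was lower at this unadjusted p (median -0.20). *Txnip*, a regulator of glucose uptake, differed by -0.34 (standard error 0.16), *Bnip3*, a mitophagy receptor, by -0.40 (standard error 0.23), and *Fbxo32*, a ubiquitin ligase, by -0.28 (standard error 0.14). The shares, 0 of 15 higher and 1 of 15 lower, stand beside the background of 5.34% and 3.15%.

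In sprouting vessels *Angpt2* is a product of endothelial tip cells, and the other genes of these cells were mixed. At the same unadjusted p, 4 of 13 tip cell genes were higher and 1 lower (median 0.22), against 5.34% and 3.15% of all probe sets. Placental growth factor (*Pgf*), a ligand of the receptor FLT1, was at 5.38 in mouse A, 5.31 in B, 4.52 in C and 4.43 in D, against 3.53, 3.91, 3.51 and 3.34 in mice F, G, H and I. The groups were apart with hypoxia above, as they were for 3.01% of all probe sets. The difference was 1.34 (standard error 0.24, adjusted p = 0.0918 from limma). The netrin receptor *Unc5b* differed by 0.74 (standard error 0.17, adjusted p = 0.169) and the guidance receptor *Robo4* by 0.41 (standard error 0.16), whereas the Notch ligand *Dll4* differed by -0.60 (standard error 0.21, adjusted p = 0.429).

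At the same unadjusted p, 5.34% of all probe sets were higher and 3.15% lower. Among 17 genes of *Angpt2* storage and release and of vessel stability, 2 were higher and 0 lower at this p (median -0.07). These were *Vwf*, the main protein of the granules that store ANGPT2, at 0.65 (standard error 0.28, adjusted p = 0.555), and the pericyte-recruiting growth factor *Pdgfb* at 0.51 (standard error 0.19, adjusted p = 0.459). The adhesion molecule *Icam1* differed by 0.47 (standard error 0.22) and the receptor *Pdgfrb* by 0.57 (standard error 0.30). In 4 of the 7 pathway lists, more genes were higher than lower at this p, and none of the 122 different genes of these lists passed the adjusted threshold.

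**Figure D4:**
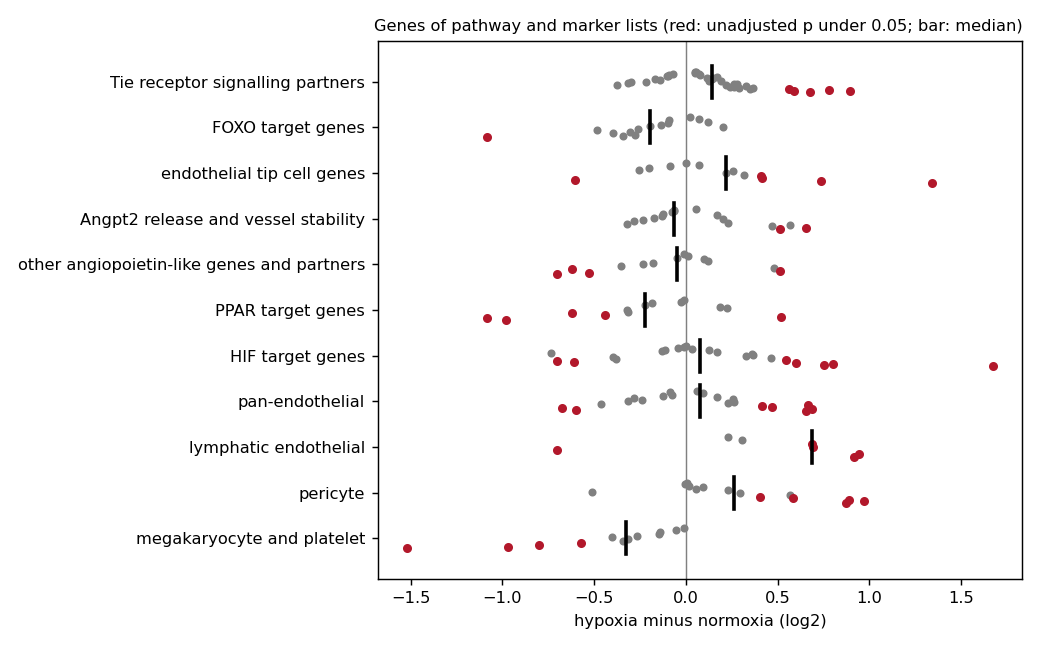
Hypoxia minus normoxia on the log2 scale (x axis) of single genes in 7 pathway lists and 4 marker lists (rows), with genes at an unadjusted p under 0.05 in red and the median of each list as a bar. The lymphatic markers have the highest median (0.69) and the platelet markers the lowest (-0.33) of the lists shown.

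The surfactant gene *Sftpc* lay between 12.63 and 13.58 and the endothelial gene *Cdh5* between 10.34 and 11.47 in the 8 lungs, so that lung markers were high in every sample. The capillary lists were mixed, with 2 of 9 aerocyte markers higher and 1 lower at this p, against 0 of 8 general capillary markers higher and 2 lower. Among them the aerocyte gene *Ednrb* differed by -1.06 (limma, standard error 0.25, adjusted p = 0.186), *Prx* by 0.85 (standard error 0.16, adjusted p = 0.0937), and *Plvap*, a protein of the diaphragms of capillary pores, by -0.95 (standard error 0.20, adjusted p = 0.139). Cardiac muscle markers were lower in 8 of 15 cases and higher in 0 at that p (median -0.66, mean level 5.68 to 5.90 in hypoxia and 6.06 to 6.65 in normoxia). The background for the capillary and cardiac lists was 5.34% higher and 3.15% lower. The part of heart muscle and fat in the values above was not tested.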

How the data were processed

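RNA of lung lobe tissue was measured on Affymetrix Mouse Gene 2.0 ST arrays, in 4 hypoxic and 4 normoxic mice. The authors deposited log2 intensities made with quantile normalization and an Entrez-based custom chip definition (version 22), and the submitters' processing notes name RMA. The background correction is not given in the sources used here. Quantile normalization gives all arrays about the same distribution (medians 4.17 to 4.20), which hides a shift common to all genes. The precision rests on the number of mice.

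Of 25428 probe sets, 564 were named by Entrez ID alone through the RefSeq gene table of GRCm38.p6, *Angptl2* among them, and 159 stayed unnamed. Limma (version 3.58.1, R 4.3.3) compared the groups across every probe set, with Benjamini-Hochberg adjustment and a threshold of 0.05. The one-way ANOVA of the methods was an alternative, as were a filter on dim probe sets, other scalings, other variance models and leaving out each mouse. In simulated data of 25428 probe sets, limma recovered 53 of 100 probe sets given a log2 shift of 1, and 96 of 100 given a shift of 2. The simulated noise was drawn separately for each probe set. Variation that genes of a real lung share is not in it, so these shares may not hold for the real lungs. Within-lung differences had an exact permutation test, and lists had counts and medians only. Named were the 8 genes, the 4 smallest p of each pathway list, up to 3 of each marker list beside a gene, and the 3 closest profiles for the 2 most variable of the 8. A gene that this rule names among the HIF targets is not reported here. *Foxo1*, *Lipg*, *Dcn*, *Rgs5*, *Pfkfb3*, *Hk2*, *Sftpc* and *Cdh5* were named outside this rule, all but *Sftpc* and *Cdh5* after their values had been seen. The genes and the 20 lists were chosen with earlier results of these data known. Tables and plots were made in Python 3.11.15 (pandas 2.3.3, scipy 1.17.1, matplotlib 3.10.9).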

Additional observations from a re-analysis of the deposited data

Results flagged for a closer look

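In 10 of 202 groups of 4 lungs examined, 1 lung lay far from the other 3 of its group, where chance gives about 1 in 20. Hypoxic mouse D was that lung for *Tie1* minus *Tek* (-0.56, nearest other hypoxic lung 0.80), for *Tek* relative to the endothelial marker mean (0.74, nearest -0.13), for *Lpl* (8.20, nearest 7.57), for *Icam2* (8.22, nearest 8.82) and for *Notch3* (6.58, nearest 7.64). Hypoxic mouse C was far above the others for the mean of the aerocyte markers (6.64, nearest 6.45), and hypoxic mouse B for the complement gene *C1qb* (9.40, nearest 8.72). Normoxic mouse I was far below the others for *Higd1b* (4.64, nearest 5.35) and for the collagen gene *Col1a2* (7.15, nearest 7.89), and normoxic mouse G for the adipokine gene *Retn* (7.24, nearest 8.58). None of the 8 angiopoietin and Tie genes had such a lung in its own values.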

How the results depend on the processing

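None of the 8 genes passed the adjusted threshold under any setting tried, and the differences of *Angpt1*, *Angpt2*, *Tie1*, *Tek*, *Ptprb*, *Angptl2* and *Angptl4* kept their sign in all of them. Without single mice, however, *Angpt1* ranged from -1.10 (without H) to -0.40 (without G), *Tek* from -0.56 (without D) to -0.23 (without B) and *Ptprb* from -0.39 (without F) to -0.02 (without I). *Tie1* minus *Tek*, chosen after the values had been seen, differed by 1.18 (exact p = 0.0857), by 1.56 without mouse D, whose removal itself separates the groups, and by 0.96 to 1.36 without another mouse. *Angpt4* was -0.0098 without mouse C and -0.029 without mouse G (range -0.03 to 0.19 when single mice were left out). *Tie1* ranged from 0.71 to 1.00 and *Angptl4* from 0.66 to 1.14 without single mice, and the adjusted p of *Tie1* from 0.140 with array weights to 0.659 without mouse B. Of the 8 genes, 2 had an unadjusted p under 0.05 as reported, 1 with the one-way ANOVA, 4 with array weights, and 1 (without mouse B or mouse I) to 4 (without mouse D) when single mice were left out. The share of all probe sets at this p was counted only for the setting as reported (8.5%). The counts under the other settings therefore have no background beside them and are not a result about these genes. *Angpt2* minus *Angpt1* ranged from 0.04 (without I) to 0.77 (without H). Over all probe sets, 53 passed the adjusted threshold without dim probe sets, which left out *Angpt2* and *Angpt4*, 22 with array weights, 12 with an intensity trend and robust variance, 0 with the one-way ANOVA, and between 0 and 33 without single mice (33 without mouse C, 23 without G, 14 without H). The pathway lists held 27 genes at an unadjusted p under 0.05 as reported and 18 to 30 without single mice, again with no background counted without single mice. The causes were not tested. No paired analysis was possible because the mouse letters differ between the groups.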
